A study of Mus musculus with 6 samples.

Results

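The normal E12.5 ventricle of the mouse embryo was described from 3 polyA RNA-seq libraries out of 6 in the series, those labelled control, across the 13843 genes of the deposited table. Each library was made from embryonic ventricles of a C57BL/6 background, with the atria and the valve region cut away. The labels do not say whether a library holds 1 embryo or several of a litter, and "embryo" below stands for 1 control sample. The controls carried 2 floxed alleles of Vhl, the gene of a ubiquitin ligase subunit that marks hypoxia-inducible factors for degradation, and were wild type at Nkx2.5, so that no Cre driver was present. The other 3 libraries carried the same floxed alleles with Nkx2.5-Cre and are not described here. Controls 1, 2 and 3 came from litters 1, 2 and 3, so differences between embryos and between litters cannot be told apart, and the labels give no sex for the embryos.

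At midgestation the mouse ventricle is a pumping organ that is still growing. A thin compact wall of dividing cardiomyocytes carries an inner meshwork of trabeculae, lined by endocardium and covered by epicardium, and primitive red cells made in the yolk sac fill the chambers. Cardiomyocytes of this stage build sarcomeres from isoforms that are in part replaced around birth, such as beta-myosin heavy chain (Myh7) in place of alpha-myosin heavy chain (Myh6) and slow skeletal troponin I (Tnni1) in place of cardiac troponin I (Tnni3). They rely on glycolysis and lactate more than the adult heart does, and imprinted genes that govern fetal growth are active.

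The values are normalised read counts, scaled by library size, and stand for whole reads times a fixed step in each library. The 3 libraries held 9067805, 11866333 and 9411323 reads, and 1 read was worth 0.111, 0.0839 and 0.105 in controls 1, 2 and 3. A gene at 0 in a library could therefore stand at up to 3 reads, which is 0.333, 0.252 and 0.315, counting error only. Of the 13843 genes, 13792 had reads in all 3 controls, and the median control mean was 27.1. A normalised count grows with the length of the mRNA, so an order by count is an order by share of the signal. Levels of different genes are compared per kb of exon, using all annotated exons of a gene merged. Where the length of the longest coding transcript gives another order, this is stated, because introns retained in some annotated transcripts make the merged length of a few genes much longer than their main mRNA.

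A small number of genes made up much of the message. Ranked by normalised count, 13 genes accounted for 10% of the signal, 118 for 25%, 876 for 50% and 5962 for 90%. Protein-coding genes gave 96.6% ± 0.15 (SD, n = 3) of the signal and pseudogenes 1.37% ± 0.045. The gene with the highest count was mt-Co1, which encodes subunit 1 of cytochrome c oxidase, with 17764, 18106 and 18602 in controls 1, 2 and 3. It was followed by Myh7 with 13327, 11828 and 10165. H19, an imprinted noncoding RNA, came next with 8291, 9106 and 9444, and Actc1, cardiac alpha-actin, after it with 9251, 8186 and 7578. The translation elongation factor gene Eef1a1, the mitochondrial genes mt-Co2, mt-Cytb, mt-Co3 and mt-Atp6, and Igf2, the fetal growth factor, completed the 10 highest. Thus the 2 highest nuclear protein-coding genes by count were a sarcomeric myosin and a sarcomeric actin, with an imprinted noncoding RNA between them.

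Per kb of exon, the mitochondrial genes and short mRNAs moved up. Among the 25 genes with the highest value per kb, 12 were mitochondrially encoded and 3 were pseudogenes. The range ran from mt-Co1 at 11752 per kb to the pseudogene Gm10222 at 1268 per kb, 9.27-fold lower. Hbb-y, the embryonic beta-type globin, came after 4 mitochondrial genes with 7651 per kb ± 2738 (SD, n = 3), but its SD was far wider than that of its neighbours in the order. Actc1 was at 5154 per kb, H19 at 3637, Myl2 (ventricular regulatory light chain) at 2727, Nppa (atrial natriuretic peptide) at 2595 and Myh7 at 1366. Gm10222 lies on chromosome 1 and had the same values as mt-Nd4l, and Gm10123 and Tpt1-ps3 are processed pseudogenes, so reads of these 3 cannot be told from those of a related gene. Several of the mitochondrial genes also share most of their stretches of read length with other annotated genes, as given below. Of the 25 genes, 22 were also among the first 25 when the longest coding transcript set the length, and 15 were among the first 25 by count.

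**Figure D1:**
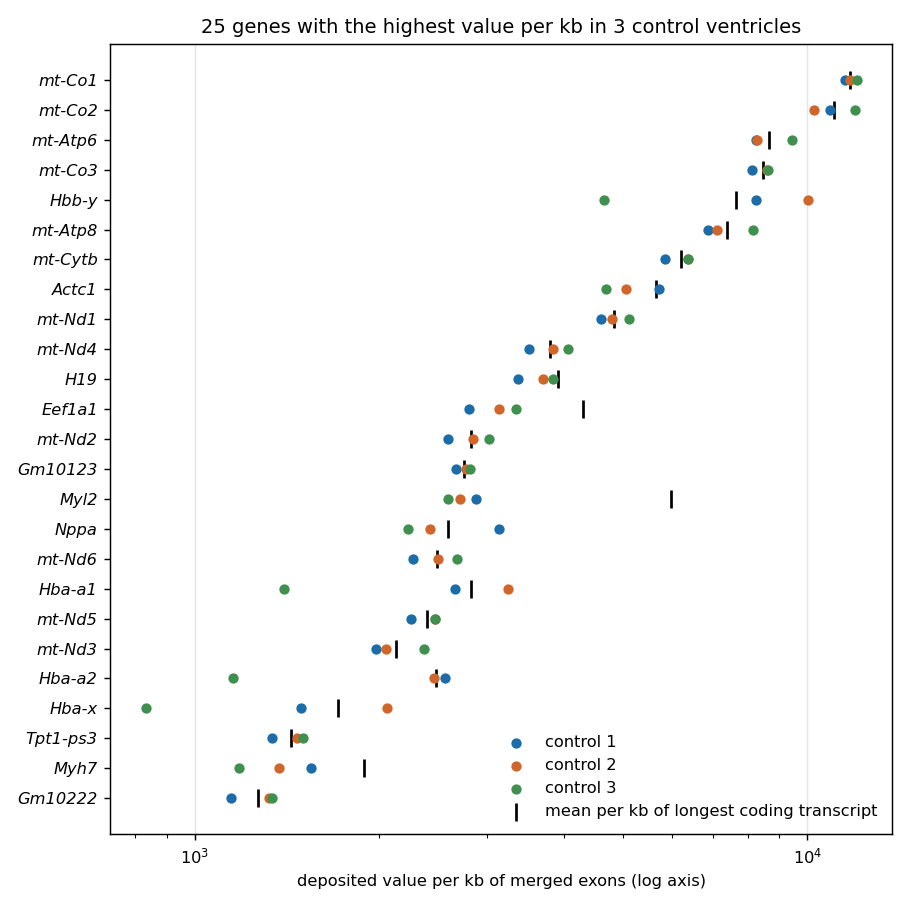
Value per kb of merged exons (log axis) of the 25 highest genes, with a point for each of the 3 control embryos and a black tick for the mean per kb of the longest coding transcript. Mitochondrial genes fill most of the upper rows, the 4 globin genes (Hbb-y, Hba-a1, Hba-a2 and Hba-x) have the widest gaps between embryos, with control 3 lowest, and the tick of Myl2 lies far to the right of its points.

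The message was also summed over 6 gene groups. By normalised count, the 13 mitochondrially encoded protein genes held 6.67% ± 0.37 of the signal (SD, n = 3), 61 of 71 listed sarcomere genes 5.99% ± 0.47, and 59 of 72 imprinted genes 3.19% ± 0.017. The 76 ribosomal protein genes held 2.82% ± 0.16, 84 nuclear genes of oxidative phosphorylation 2.04% ± 0.048, and 8 globin genes 1.08% ± 0.40. Relative to its mean, the imprinted share varied least between embryos and the globin share most. Listed genes that are not counted here were not analysed.

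Gene length changes these shares, since mitochondrial, ribosomal and globin mRNAs are short. Per kb of exon, the mitochondrially encoded genes held 20.97% ± 1.28 of the summed value, the sarcomere list 5.20%, the ribosomal protein genes 4.81%, the globins 4.39%, the nuclear oxidative phosphorylation genes 3.11% and the imprinted genes 2.20%. The mitochondrially encoded genes summed to 6.75 ± 0.51 times the nuclear oxidative phosphorylation genes per kb. Smaller groups by count were the translation factors at 1.48%, the extracellular matrix at 1.23%, glycolysis at 1.21%, the citric acid cycle with pyruvate dehydrogenase at 0.98%, the cell cycle at 0.68%, heart transcription factors at 0.43% and fatty acid use at 0.36%.

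**Figure D2:**
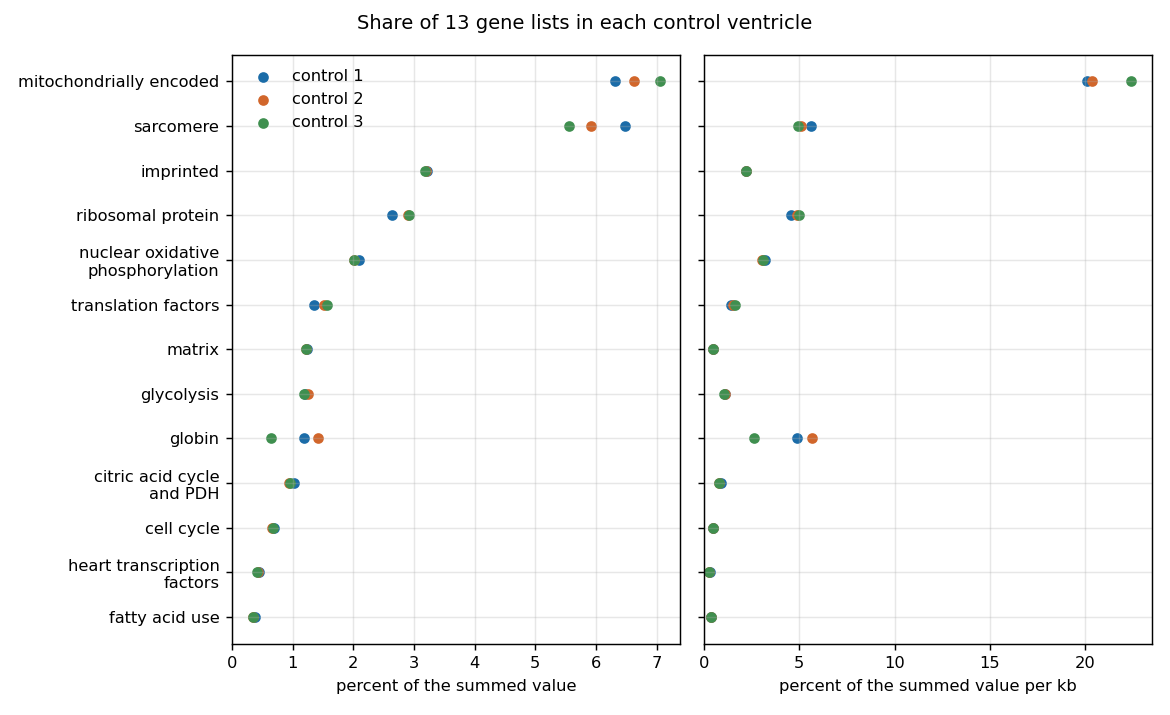
Percent of the summed normalised count (left) and of the summed value per kb of merged exons (right) held by 13 gene lists, with 1 point per control embryo. The mitochondrial list holds 6.67% on the left and 20.97% on the right, and the globin points of the 3 embryos are spread more widely than those of the other short-gene lists.

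The sarcomere was carried by few genes. The 5 highest by count (Myh7, Actc1, Myl2, Ttn and Tnnt2) gave 53.9% ± 1.0 of the count of the whole list. Ttn, the giant elastic filament protein, had counts of 4438, 3420 and 3308, but only 31.9 per kb, because its mRNA is very long. Tnnt2, which links the troponin complex to tropomyosin, had counts of 3176, 3152 and 2878. Mybpc3, cardiac myosin-binding protein C, had 2688, 2313 and 2207, and the Z-disc protein Actn2 had 1306, 1146 and 963. For Myh7, Actc1, Myl2, Mybpc3 and Actn2 the order of the embryos was the same, with control 1 highest and control 3 lowest.

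To show what lies upstream of sarcomere and natriuretic peptide genes, the 250 bases before the annotated start are printed for 3 of them, from RefSeq on GRCm38.p6, 5′ to 3′ on the gene's strand. They were picked from 8 genes looked at, and each of the 3 holds a match to a heart-related motif. Myl2 and Tnnt2 also hold AGATAA but are not printed. Myh6 holds only TATAAA, and Myh7 and Tnnc1 hold no match to the motifs searched. Capitals mark a CArG box (the serum response factor motif) in Actc1 at chr2:114052876-114053125, minus strand. Actc1 also holds TATAAA, after the annotated start and so outside the printed bases. In Nppa at chr4:148000472-148000721, plus strand, capitals mark TGATAA, a motif of the zinc-finger factor Gata4 and its relatives. They also mark TATAAA in Nppa, which begins at base -9 from the annotated start. In Myl7 at chr11:5898783-5899032, minus strand, they mark a CArG box and the same Gata4 motif as in Nppa.
Actc1: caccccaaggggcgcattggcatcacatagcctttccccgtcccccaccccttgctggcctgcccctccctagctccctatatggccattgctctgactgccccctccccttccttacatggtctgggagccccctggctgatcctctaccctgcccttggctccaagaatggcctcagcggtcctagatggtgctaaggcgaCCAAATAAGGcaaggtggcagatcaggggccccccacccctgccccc
Nppa: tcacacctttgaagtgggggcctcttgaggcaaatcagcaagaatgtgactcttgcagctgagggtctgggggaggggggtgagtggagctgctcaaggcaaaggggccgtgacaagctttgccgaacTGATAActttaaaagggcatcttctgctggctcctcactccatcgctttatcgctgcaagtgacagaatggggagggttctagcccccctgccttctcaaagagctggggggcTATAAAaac
Myl7: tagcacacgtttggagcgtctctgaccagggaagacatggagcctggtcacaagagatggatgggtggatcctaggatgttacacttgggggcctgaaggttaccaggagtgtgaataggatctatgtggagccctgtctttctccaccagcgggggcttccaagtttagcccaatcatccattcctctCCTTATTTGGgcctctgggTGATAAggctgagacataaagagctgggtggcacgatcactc
The search covered windows that also hold 50 bases after the start. TATAAA was read on the gene's strand, and the CArG box, AGATAA or TGATAA and a motif of MEF2 factors on both strands. A CArG box lay in 11 of 64 windows of sarcomere genes (17.2%) and in 178 of 13326 windows of all genes of the table matched by symbol (1.34%). AGATAA or TGATAA lay in 20.3% and 10.3%, the MEF2 motif in 10.9% and 1.79%, and TATAAA in 9.38% and 4.33%. The 64 windows belong to 48 sarcomere genes, some with overlapping windows, and a match is a description of letters and not of binding.

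Within the myosin heavy chains, Myh7 held 75.2% ± 1.2 of the summed value per kb (SD, n = 3), Myh6 23.5% ± 1.3 and Myh7b 1.27% ± 0.14. Myh6 had counts of 3029, 2877 and 2657. Its share of Myh6 and Myh7 together was 23.8% ± 1.27 per kb and 19.9% when the longest transcript set the length. The 3 embryos did not overlap between Myh7 and Myh6 or between Myh6 and Myh7b. In the nonmuscle pair, Myh10 held 76.9% ± 0.73 per kb and Myh9 23.1%.

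Among the light chains, Myl2 held 70.8% ± 2.9 of the value per kb of the regulatory pair and the atrial form Myl7 29.2%. Myl7 had counts of 643, 606 and 737, against 5611, 5284 and 5058 for Myl2. With the longest transcript as length the share of Myl2 was 84.2%. For the essential light chains the length decides the order. Myl3, the ventricular form, held 65.4% ± 1.9 per kb of merged exon, Myl4, the atrial and embryonic form, 32.5% ± 1.3, and the skeletal form Myl1 2.06%. The merged exons of Myl4 span 4637 bases and its longest coding transcript 943, and on the latter scale Myl4 led with 52.1% and Myl3 had 46.6%. Counts were 2236, 2082 and 2027 for Myl4 and 2091, 1894 and 1665 for Myl3.

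Each thin filament family had 1 leading gene. Actc1 held 90.6% ± 1.4 of the muscle actins per kb, smooth muscle actin Acta2 7.57% ± 1.5 and skeletal actin Acta1 1.81% ± 0.17. Tnnt2 held 75.0% ± 0.98 of troponin T per kb of merged exon and 90.4% per kb of the longest transcript, and the slow skeletal form Tnnt1 held 24.7% and 9.57%. Tnni1 held 62.1% ± 2.8 of troponin I, Tnni3 35.0% ± 2.8 and the fast skeletal form Tnni2 2.88%. Its count was highest in control 3 (1202, 1190 and 1315), whereas that of Tnni3 was highest in control 1 (429, 400 and 367). Tnnc1 was the troponin C gene measured, with 976, 984 and 941. Of the tropomyosins, Tpm1 held 60.4% ± 2.4, Tpm4 24.3% ± 3.2, Tpm2 8.62% and Tpm3 6.75% per kb of merged exon, and on the longest transcript Tpm3 (9.65%) stood above Tpm2 (6.04%).

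Structural genes of the mature sarcomere were present at very unequal levels. Mybpc3 held 99.8% of the myosin-binding protein C value per kb, with the skeletal forms Mybpc1 and Mybpc2 at counts from 1.85 to 4.33. Myom1 held 99.9% of the myomesin value, and Myom2, a form of the mature heart, was at counts of 0.888, 0.839 and 1.78. Among the actinins, Actn2 held 76.1% ± 1.2 per kb, and the nonmuscle Actn4 (12.7%) and Actn1 (10.8%) overlapped between embryos on merged exons. In the lamins, Lmnb1 held 81.0% ± 1.1 and the A-type lamin gene Lmna 8.31%, below Lmnb2 at 10.7% on merged exons and above it on the longest transcript.

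Calcium handling genes were led by the cardiac forms. Atp2a2, the calcium pump of the sarcoplasmic reticulum, had counts of 1950, 1684 and 1707 and 99.5% ± 0.44 of the value per kb of the SERCA genes measured. Its inhibitor Pln had 1135, 1077 and 1100, and 52.7% of its 75-base stretches are shared with at least 1 other annotated gene. Ryr2, the calcium release channel, held 94.8% ± 2.1 of the ryanodine receptors, Slc8a1 95.6% of the sodium-calcium exchangers and Cacna1c 75.8% ± 5.6 of the L-type channels. The T-type channel gene Cacna1h held 94.9% ± 2.2 of its pair.

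Calsequestrin had no leader beyond the spread between embryos. Casq1, the skeletal form, had counts of 112, 151 and 113 and Casq2, the cardiac form, 163, 104 and 103. Per kb their ranges overlapped, at 64.2 ± 11 for Casq1 and 45.1 ± 13 for Casq2. Among the connexins, whether the first gene stood clear of the next depended on length. Gja1 (connexin 43) held 39.2% ± 4.5 and Gja5 (connexin 40, a trabecular and conduction form) 35.1% ± 3.4 per kb of merged exon, overlapping between embryos, as did Gjc1 (13.1%) and Gja4 (12.6%). Per kb of the longest transcript Gja1 led with 56.8% ± 4.6, Gja5 had 24.8% ± 3.2, and the embryos did not overlap. The count of Gja1 was 611, 443 and 382, highest in control 1. Hcn4 was the pacemaker channel measured, at counts of 20.1, 15.4 and 20.9.

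Over all 59 families examined, 55 had at least 2 members among the genes measured. In 15 of these the leading gene held over 90% of the value per kb, in 28 over 75% and in 16 under 60%. The leader was the same on both length scales in 48 families. It changed in 7, which were the essential light chains, phosphofructokinase, the fatty acid binding proteins, the estrogen-related receptors, MEF2, the D cyclins and the beta-adrenergic receptors. Per kb of merged exon, at least 1 pair of neighbours in the order overlapped between embryos in 9 families.

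**Figure D3:**
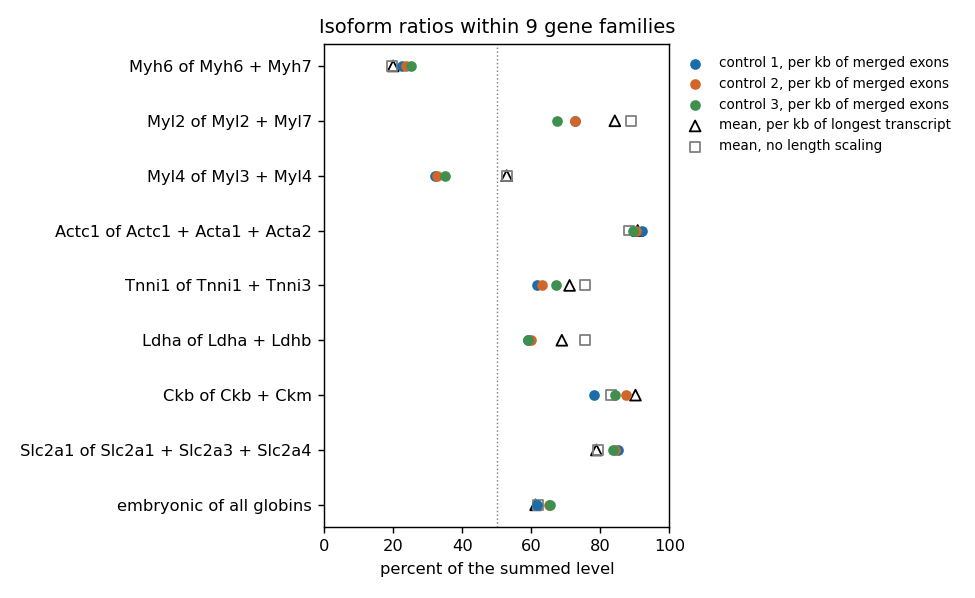
Percent of the summed level held by the first-named gene in 9 families, with coloured points for the 3 control embryos per kb of merged exons, triangles for the mean per kb of the longest coding transcript and squares for the mean without length scaling. The 3 points of a family lie close together compared with the distance between families, and for Myl4 the triangle and square lie on the other side of the dotted 50% line from the points.

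Glucose use was led by Slc2a1, the fetal glucose transporter, with counts of 311, 281 and 282 and 84.3% ± 0.70 of the value per kb of 3 transporters. The insulin-responsive Slc2a4 held 9.56% and Slc2a3 6.12%. Hk1 held 74.3% ± 1.3 and Hk2 25.7% of the hexokinase value, and Aldoa 99.5% of the aldolase value. Pfkm and Pfkl overlapped per kb of merged exon, at 41.9% and 39.7%. Pgam1 held 60.7% ± 0.99 and the muscle form Pgam2 39.3%, and Eno1 58.6% ± 7.9 and the muscle form Eno3 40.9% ± 7.9, overlapping between embryos on merged exons. Per kb of the longest transcript Eno1 held 76.8% ± 6.0 and Eno3 22.8% ± 5.9 without overlap. Eno1 was lowest in control 1 (870, 1404 and 1238), and so was its sum with its copy Gm4735 (1021, 1408 and 1238), described below.

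Lactate dehydrogenase had the steadiest ratio of the 9 plotted. Ldha, the form that favours lactate production in textbook accounts, had counts of 1359, 1375 and 1302, and Ldhb, the form of the mature heart, 446, 439 and 429. Ldha held 59.3% ± 0.41 per kb of merged exon and 68.8% per kb of the longest transcript. Creatine kinase was led by the brain form Ckb, with counts of 120, 122 and 107. The muscle form Ckm had 33.8, 17.6 and 20.2 and the mitochondrial form Ckmt2 7.32, 4.03 and 4.20, both highest in control 1.

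In the respiratory chain the widely expressed cytochrome c oxidase subunits stood above their heart-type partners. Cox6a1 held 70.1% ± 1.2 and Cox8a 95.3% ± 0.29 of their pairs per kb, and Cox7a1, the heart-type form, 15.5% ± 0.052 of its family. The heart-type Cox6a2 stood at counts of 91.2, 96.2 and 92.5, Cox7a1 at 34.5, 32.5 and 35.0 and Cox8b at 8.76, 7.38 and 7.34. The ADP/ATP carrier of heart, Slc25a4, held 59.5% ± 0.41 and Slc25a5 40.5%. The ATP synthase genes Atp5b (counts of 3358, 3133 and 3033) and Atp5a1 (2280, 2168 and 2103) stood highest per kb in the nuclear list, at 749 and 697.

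Fatty acid genes took a smaller share of the signal than glycolysis genes, 0.36% against 1.21%. Cpt1b, which in muscle admits long-chain fatty acids to mitochondria, had counts of 272, 239 and 227 and held 87.8% ± 0.13 of its family per kb. However, 77.1% of its 75-base stretches are shared with other annotated genes. Fabp3, the heart form, led the binding proteins per kb of merged exon with 77.6% ± 2.2, and Fabp5 had 50.3% per kb of the longest transcript. Among the regulators of oxidative genes, Ppard held 85.2% ± 4.1 and Ppara 14.8%, with Ppara at counts of 1.77, 1.01 and 1.47. Ppargc1a held 77.8% ± 6.2 of the PGC-1 pair.

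The oxygen-sensing pathway that the series addresses was measurable in the controls. Hif1a had counts of 457, 405 and 447, Hif3a 150, 148 and 148 and Epas1 64.9, 55.1 and 64.2. Per kb of merged exon Hif1a held 69.0% ± 0.68 of the 3, Hif3a 20.7% ± 1.0 and Epas1 10.2% ± 0.38, with no overlap between embryos. Vhl itself stood at 33.7, 36.3 and 38.6, which was 304, 433 and 368 reads.

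The 13 mitochondrially encoded genes were uneven among themselves. mt-Co1 gave 27.4% ± 0.63 of their summed count. Per kb, mt-Co1 (11752) and mt-Co2 (11028) stood highest, then mt-Atp6 (8644), mt-Co3 (8451), mt-Atp8 (7385) and mt-Cytb (6210), and the complex I genes lay between 4840 for mt-Nd1 and 1255 for mt-Nd4l. Stretches of read length shared with other annotated genes made up 99.9% of mt-Co3, 99.5% of mt-Co2 and mt-Atp6, 97.8% of mt-Nd3 and 61.5% of mt-Nd4. They made up 39.8% of mt-Co1, 5.71% of mt-Nd2, 1.66% of mt-Nd5 and 0% of mt-Cytb, mt-Nd1, mt-Atp8 and mt-Nd6. The place in the order is uncertain for the genes that share most. mt-Nd6 is encoded on the opposite strand to the others, and the library kit does not mark strand. Of the 13 genes, 12 were lowest in control 1, where 36.7% of all genes were, and 12 highest in control 3, where 34.5% were.

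Ribosomal protein genes also differed widely per kb, from Rplp1 at 1048 to Rpl12 at 9.25. Reads of some of these genes also match copies, so a low value need not be a low mRNA level. Rpl27 had counts of 24.3, 26.5 and 19.3, beside 218, 238 and 50.3 for Gm11518. This copy shares 100% of its read-length stretches with Rpl27. By contrast, Rps16, Rpl10 and Rpl14 had higher counts than their copies Rps16-ps2, Rpl10-ps3 and Rpl14-ps1. Whether shared reads account for the value of Rpl12 was not tested. Rpl4 had counts of 1143, 1240 and 1268, Rps4x 900, 978 and 1008 and Rplp0 886, 958 and 947. Of the 76 genes, 64 had their lowest value in control 1, where 36.7% of all 13843 genes did. The summed count was 26560, 28884 and 28822, so the largest difference was 1.09-fold. Pseudogenes of this family with a -ps symbol (20 measured) added 0.31% of the signal, which leaves out copies with clone names such as Gm11518. Eef1a1 was also lowest in control 1 (6992, 7828 and 8350).

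Imprinted genes held a near-constant share as a sum, but not one by one. The SD of a member was 8.20% of its mean in the median, beside 8.51% over all genes. Large members moved in opposite directions, with H19 (8291, 9106 and 9444) lowest in control 1 and Mest and Igf2r highest there. H19 and Igf2, neighbours on chromosome 7 that are expressed from opposite parental alleles, gave 1.37 to 1.51% of all signal in the 3 embryos. Igf2 had counts of 5505, 5953 and 5484, and 60.7% of its 75-base stretches are shared with at least 1 other annotated gene. Mest, paternally expressed, had 4907, 4128 and 3579, and Igf2r, the maternally expressed receptor that clears Igf2 protein, 4157, 3100 and 3264. These 4 genes gave 70.1% ± 0.68 of the imprinted signal.

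Below them, Grb10, an adaptor that restrains growth signalling, had counts of 2074, 1939 and 1995. Plagl1, a transcription factor of the imprinted set, had 1476, 1291 and 1415, and the cell cycle inhibitor Cdkn1c 745, 856 and 787. Maternally expressed genes summed to 18813, 18668 and 19012, and paternally expressed genes to 13459, 13152 and 12325. Thus the maternal sum varied by 1.02-fold and the paternal sum by 1.09-fold. Igf1, the partner of Igf2 after birth, stood at 51.4, 83.9 and 92.8, and Igf2 held 99.2% of the value per kb of the pair.

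Globin transcripts marked the red cells in the tissue. Among the beta-type genes Hbb-y held 81.6% ± 1.6 per kb, Hbb-bt 7.89%, Hbb-bh1 7.39% and Hbb-bs 3.08%. Among the alpha-type genes, Hba-a1 held 40.9% ± 1.2, Hba-a2 34.7% ± 3.3 and the embryonic Hba-x 24.4% ± 2.1. Hba-a1 and Hba-a2 share 67.9% and 84.6% of their 75-base stretches with each other, and Hbb-bt and Hbb-bs over 50%, so the split within these pairs is uncertain. The embryonic genes Hbb-y, Hbb-bh1 and Hba-x together held 64.1% ± 2.1 of the globin value per kb in spite of large differences in the total.

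That total differed 2.25-fold. The summed globin count was 11876, 14129 and 6268, and all 8 genes were lowest in control 3. Hbb-y followed it with 5224, 6353 and 2951. The other erythroid genes moved with them: Slc4a1, the anion exchanger of the red cell membrane, had 209, 244 and 104, and Alas2, the first enzyme of erythroid haem synthesis, 87.5, 100.3 and 42.7. Of 26 erythroid genes that are not globins, 23 were lowest in control 3, where 33.6% of all genes were. In bulk tissue fewer cells of a type and less RNA per cell cannot be told apart.

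The labelled tissue was checked against marker lists. All 16 cardiomyocyte and all 8 ventricular cardiomyocyte markers were measured, with Myl2, Irx4 (87.6, 84.6 and 66.9) and Hey2 (139, 140 and 150) among the latter. Atrial forms were also present, 13 of 14, with Myl7 and Myl4 as above and Nppa at 2712, 2095 and 1927, though Nppa is a trabecular marker of the ventricle as well. Sln, a defining atrial gene, was not analysed here. Of 16 pacemaker and conduction genes, 11 were measured. Gja5 (260, 209 and 240) and Gjc1 (83.0, 75.0 and 72.2) had the highest counts of these, and the other 9, among them Hcn4 and Tbx3 (3.33, 13.2 and 11.0), lay between 2.55 for Bmp2 and Tbx2 in control 1 and 37.8 for Etv1 in control 2.

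Markers of neighbouring organs were few. The genes measured were 2 of 11 for liver (Trf and Apob, with counts from 3.94 to 12.7), 2 of 12 for skeletal muscle (Acta1 and Tnnt3), 5 of 14 for neural crest, glia and neurons, and none of 9 for lung and foregut. The neural sum was 28.8, 39.9 and 35.0. Among heart cell types other than cardiomyocytes, the endothelial and endocardial list of 22 genes summed to 2332, 2325 and 2248, with Cdh5 at 258, 256 and 242. The epicardial list of 16 summed to 528, 450 and 571, and the compact myocardium list of 10 to 1206, 1220 and 1250.

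Of the heart transcription factors listed, 39 were measured. Gata4 had counts of 236, 258 and 237 and held 70.5% ± 1.7 of the GATA family per kb, with Gata6 at 18.6% and Gata5 at 10.9%. Hand2 held 67.0% ± 5.6 and Hand1, a left ventricular factor, 33.0%. Irx4 held 51.0% ± 2.9 of the 6 Iroquois genes. Nkx2-5 was at 75.7, 79.2 and 68.6, Tbx20 at 453, 483 and 509 and Tbx5 at 55.1, 54.2 and 62.8. The mechanosensitive Ankrd1 had the highest level per kb of this list (209), with counts of 753, 637 and 419. Irx2 was at 23.4, 39.6 and 17.6. Proliferation genes were plain as well, Mki67 at 568, 518 and 503 and Top2a at 497, 468 and 494.

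The 3 embryos were close to each other for most genes. The median coefficient of variation (CV, the SD as a percent of the mean) was 8.51% over all genes and 5.81% over the 6921 genes above the median level. Of the latter, 81.0% had a CV under 10% and 62 had a CV over 30%. The common dispersion of edgeR, which removes counting error, gave a biological CV of 12.6%. It is 1 value fitted to all genes together and lies above the median CV, so it is not the spread of a typical gene. Pairwise correlations of log2(value + 1) across genes were 0.983, 0.981 and 0.987 for controls 1 and 2, 1 and 3, and 2 and 3, where genes are not independent replicates.

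For low genes the spread between embryos was close to counting error, and for high ones it was well above. For 3727 genes with means of 1 to 10 the median CV was 19.7%, beside 16.7% from counting alone. For 4423 genes with means of 30 to 100 it was 6.11% beside 4.39%. For the 72 genes with means of at least 1000 it was 6.59% beside 0.766%, so the most abundant transcripts differed between embryos far beyond counting error. The smallest CV among genes with a mean of at least 100 belonged to M6pr, a mannose 6-phosphate receptor, with 103.8, 103.9 and 103.9. Its CV of 0.0491% lies far under the 3.10% that counting alone gives on average. The next were Copg1, Msrb3, Riok3, Dnajc5, Pdk3, Armcx2, Cab39, Tardbp and Eef1d, with CVs from 0.129% to 0.332%.

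Control 1 differed from the others in a myocyte and mesenchyme direction. The sarcomere list summed to 65191, 59003 and 54796, and 45 of its 61 genes were highest in control 1, where 35.8% of all genes were. Of the 61, 36 were lowest in control 3, where 33.6% of all genes were. The cardiomyocyte markers summed to 46065, 41081 and 37772, with 12 of 16 lowest in control 3. The trabecular markers summed to 4963, 3977 and 3633, with 12 of 14 highest in control 1. Nppb, brain natriuretic peptide, was the widest of these at 197, 159 and 84.6. By contrast the sum of the compact myocardium list differed by 1.04-fold, but this list shares genes with the others and its members moved in opposite directions. Bmp10 (78.0, 42.0 and 46.8) is also in the trabecular list. Tbx20 (453, 483 and 509), the compact gene with the highest count, is also in the fibroblast and cushion mesenchyme list.

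Fibroblast and cushion mesenchyme markers ran the other way, with sums of 2714, 3346 and 3525. Of these markers, 14 of 17 were lowest in control 1, where 36.7% of all genes were. The cushion transcription factor Twist1 was at 1.11, 23.8 and 14.6 and Sox9 at 4.22, 21.5 and 19.8. Postn, a matricellular protein of valves and fibroblasts, was at 93.9, 293 and 241, and Pdgfra, a mesenchymal receptor, at 30.1, 76.1 and 85.2. Of the atrioventricular canal genes in the pacemaker list, Bmp2 was at 2.55, 18.3 and 21.7 and Tbx2 at 2.55, 10.1 and 10.4, also lowest in control 1. These genes mark the region that was cut away in dissection; the part of the dissection in the differences was not tested.

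Platelet and megakaryocyte markers gave the widest ratio of the marker lists, with sums of 23.6, 48.8 and 122. All 7 were highest in control 3, where 34.5% of all genes were, and lowest in control 1, where 36.7% were. Among them were Itga2b (12.4, 21.2 and 56.1), which encodes a platelet integrin subunit, and Pf4 (2.00, 7.38 and 24.96). Itgb3, the partner of Itga2b, followed with 18.6, 28.7 and 71.5. Control 3 therefore had the lowest erythroid and the highest platelet values. Macrophage markers summed to 80.8, 115 and 125.

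**Figure D4:**
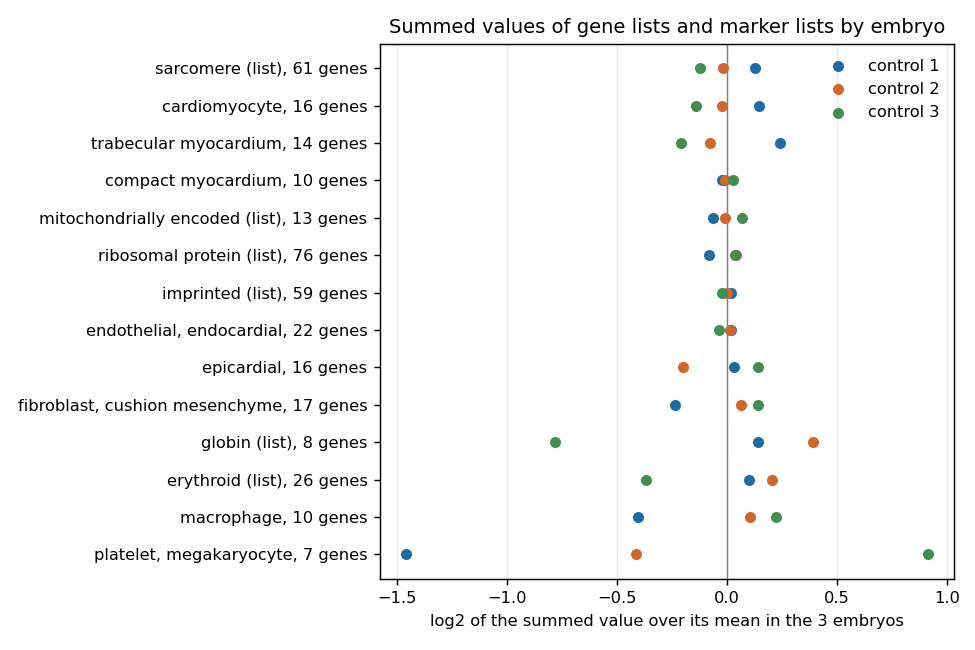
Log2 of the summed normalised count of gene lists and marker lists over the mean of the 3 control embryos, with 1 point per embryo and the number of genes beside each name. Points of the imprinted, endothelial and compact myocardium lists nearly coincide, control 3 is lowest for globin and erythroid genes, and platelet markers span the widest range with control 3 highest.

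The widest single gene was Xist, the noncoding RNA transcribed from the inactive X chromosome of female cells. It had counts of 1500, 1.59 and 1348, which were 13518, 19 and 12854 reads. Genes that escape X inactivation, chosen after their values were seen, were also lowest in control 2: Kdm6a at 84.9, 47.8 and 88.4, Eif2s3x at 332, 216 and 342, Kdm5c at 186, 134 and 177 and Ddx3x at 593, 513 and 618. The Y-linked genes of the list were not analysed here.

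Of the 6921 genes above the median level, 47 had a range over 1 on the log2(value + 1) scale. Among the 20 widest with a gene name that is not a clone name, 7 were globin or erythroid genes and 3 were matrix or mesenchyme genes. Cwc22, a splicing factor, was at 32.6, 589 and 35.8, high in control 2. Rnf213, an interferon-responsive ubiquitin ligase, was at 179, 66.4 and 76.9, high in control 1.

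Many of the other wide genes were copies of another gene. Of the 20 widest genes of any name, 10 share at least 50% of their 75-base stretches, the read length, with other annotated genes, and of the 10 widest, 7 do. Among genes above the median level, 11.5% of the 192 with such sharing had a range over 1, beside 0.326% of the 5826 that share under 10%. Gm10184, an annotated retrogene on chromosome 17 (GRCm38 89908462 to 89910449), was at 0, 159 and 1.36. Its parent Kpna2 on chromosome 11, an importin that carries proteins into the nucleus, was at 288, 128 and 281. The sum of the pair was 288, 286 and 282, with a CV of 1.07%, against 39.1% for Kpna2 alone.

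The coding sequences of both pairs below are nearly identical, and a single read-length window shows how little separates them. Over 1590 coding bases Kpna2 and Gm10184 differ at 2, and over 1299 coding bases Ahcy and Gm4737 differ at 4. The windows of 75 bases are from GENCODE M21 transcripts on GRCm38, each within 1 exon and read 5′ to 3′ on the minus strand, at chr11:106991222-106991296 (Kpna2), chr17:89909540-89909614 (Gm10184), chr2:155062249-155062323 (Ahcy) and chr16:46153946-46154020 (Gm4737). The capital marks the base that differs, counted from 1 at the 5′ end and written with the parent's base first, C39T for Kpna2 and C58T for Ahcy.
Kpna2: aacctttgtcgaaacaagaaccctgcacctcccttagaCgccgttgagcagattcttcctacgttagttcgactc
Gm10184: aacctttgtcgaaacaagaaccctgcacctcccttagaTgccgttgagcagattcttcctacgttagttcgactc
Ahcy: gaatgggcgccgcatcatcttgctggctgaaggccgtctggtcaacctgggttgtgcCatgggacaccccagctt
Gm4737: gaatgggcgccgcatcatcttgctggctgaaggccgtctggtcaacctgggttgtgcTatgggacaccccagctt
Ahcy, the hydrolase of S-adenosylhomocysteine, was at 138, 44.9 and 130, and Gm4737 at 0, 90.3 and 2.10. Their sum was 138, 135 and 132, a CV of 2.17%. For both pairs the copy took most of the reads in control 2, and almost none in controls 1 and 3.

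Other copies changed embryo by embryo in the same manner. Vcp-rs was at 0.222, 0 and 222, while Vcp, an ATPase of protein quality control, was at 783, 757 and 494, and the sum had a CV of 4.54%. Gm3608 was at 0.555, 67.2 and 70.6 and Capza1, an actin capping subunit, at 279, 201 and 227, with a CV of the sum of 5.21%. Other pairs did not add up to a steady sum. Gm4735 was at 151, 3.69 and 0.839 with Eno1, and the sum was 1021, 1408 and 1238. Gm26825 was at 1.33, 178 and 166 with Hspa8, a constitutive chaperone (2190, 1394 and 1353), and the sum was 2192, 1572 and 1520. The pseudogene Gm13841 was at 158, 167 and 0.105 and Uimc1, the gene that shares most with it, at 25.7, 28.9 and 26.4, so that the CV of the sum was 69.8%. Gm11518 was at 218, 238 and 50.3 and Rpl27 at 24.3, 26.5 and 19.3, a CV of the sum of 55.5%. Levels of Kpna2, Ahcy, Vcp, Eno1 and Hspa8 in a single embryo are therefore uncertain.

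**Figure D5:**
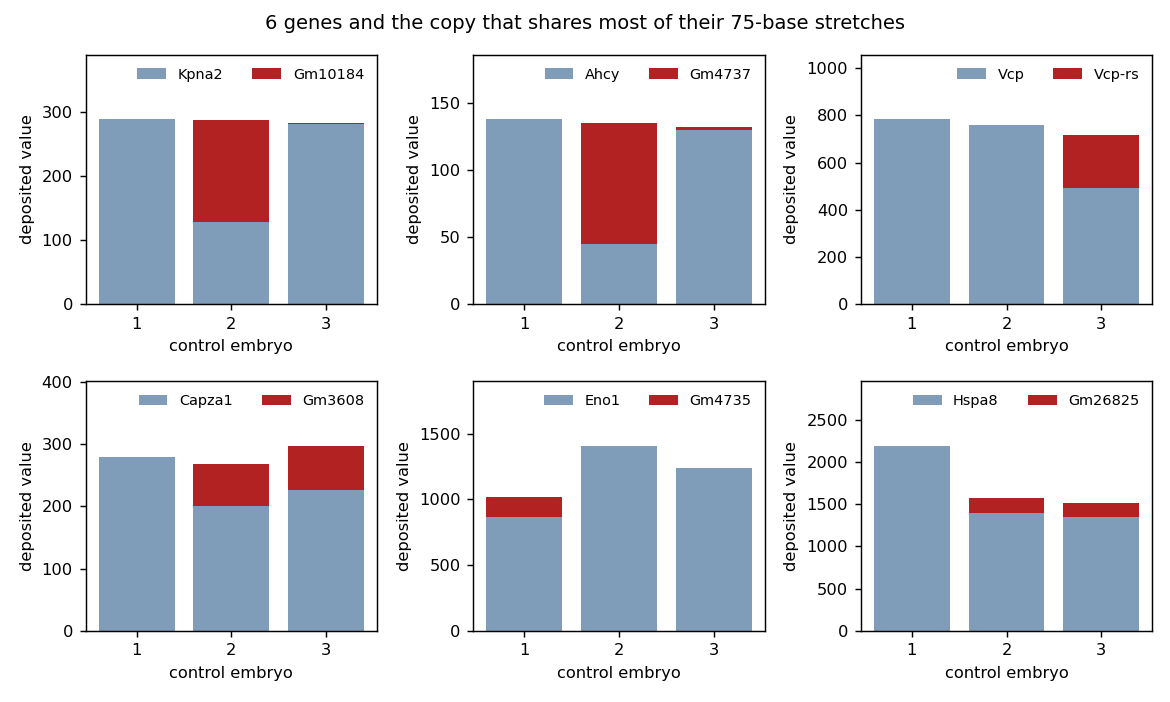
Normalised count of 6 parent genes (blue) and of the copy stacked on each (red) in control embryos 1, 2 and 3. The stacked height is nearly level for Kpna2 with Gm10184 (288, 286 and 282) and Ahcy with Gm4737 (138, 135 and 132) although the red part is large in control 2, and is uneven for Eno1 and Hspa8.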

How the data were processed

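The sequenced material was polyA RNA from embryonic ventricles (500 ng of total RNA, unstranded TruSeq v2 kit, single reads of 75 bases, per the labels' protocols). CASAVA 1.8.2, cutadapt 1.3, RSEM 1.2.3 and GRCm38 are named in the submitters' processing notes, and those sources state no annotation release. The authors deposited 1 table of normalised signal, not counts. Its values are whole reads times a fixed step per column (100% of values within 0.01 reads), and every gene had at least 1 in 3 or more of the 6 libraries, so the set of genes depends on all 6. Lengths, exons and shared 75-base stretches came from GENCODE M21, which may differ from the annotation used, and 13681 genes matched a symbol.

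Shares, means, SDs and CVs were computed in Python 3.11.15 with pandas 2.3.3. Dispersions came from edgeR 4.0.16 on the recovered reads, with DESeq2 1.42.0 size factors as an alternative, and were tested on simulated data. There was a single group and so no test. Gene lists, families and examples were chosen with earlier results of these data known. Named were the 25 highest genes per kb, the 10 highest by count, family members, leading list members and markers, the 20 widest and the 10 steadiest genes. Genes named outside this rule, such as copies, their parents and genes that escape X inactivation, were chosen after their values were seen.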

Additional observations from a re-analysis of the deposited data

How the results depend on the processing

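Of 108 comparisons with another setting, 68 stayed within 1 SD of the 3 embryos (CVs within 5%, counts within 1.5 times) and 40 moved. The 68 include shares and isoform ratios with 1 embryo left out. Leaving out 1 of 3 embryos cannot move a mean by 1 SD, so these comparisons could only stay and say nothing on stability. Length moved the shares most: per kb of merged exon they were 5.20% (sarcomere), 20.97% (mitochondrially encoded), 3.11% (nuclear oxidative phosphorylation), 4.81% (ribosomal protein), 4.39% (globin) and 2.20% (imprinted). Per kb of the longest coding transcript, a setting chosen after seeing the data, they were 6.65%, 15.7%, 3.98%, 6.53%, 3.54% and 2.06%. With mitochondrially encoded genes out of the denominator, nuclear oxidative phosphorylation held 2.18%, ribosomal protein genes 3.02% and imprinted genes 3.42%. With genes of a mean of at least 10, imprinted genes held 3.24%. Adding ribosomal pseudogenes with a -ps symbol gave 3.13%.

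Isoform shares without length scaling and per longest transcript were 19.6% and 19.9% (Myh6), 88.9% and 84.2% (Myl2), 53.0% and 52.8% (Myl4, which passes 50%), 75.6% and 71.1% (Tnni1), 75.4% and 68.8% (Ldha), 79.2% and 78.8% (Slc2a1) and 62.0% and 61.2% (embryonic globins). Actc1 moved without length scaling (88.3%) and Ckb on the longest transcript (90.2%).

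The median CV was 6.64% and the biological CV 11.1% over genes with a mean of at least 10. Leaving out each control gave 6.20% to 7.94% for the median CV and 10.7% to 14.2% for the biological CV, lowest in both cases without control 1. With scaling by library total alone, added after seeing the data, 40 in place of 45 sarcomere genes were highest in control 1 and 66 in place of 64 ribosomal genes lowest. With 3 embryos an SD is itself imprecise. Dropping mitochondrially encoded genes from their own denominator was not run. No paired analysis was possible because a single group was described and no test was made.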

Other observations

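Immediate early genes, which dissection can induce, showed no common order. Of 26 measured, 9 were highest in control 1, 12 in control 2 and 5 in control 3, and 13 were lowest in control 1. Over all genes, 35.8%, 29.7% and 34.5% were highest in controls 1, 2 and 3, and 36.7% were lowest in control 1. Those with the highest values in control 1, picked after their values were seen, included Ccn2 (213, 161 and 96.1), Ccn1 (93.7, 55.0 and 41.0), Egr1 (40.3, 19.6 and 20.9), Fos (10.7, 4.87 and 4.93) and Jun (73.2, 71.2 and 65.7), whereas Jund (77.4, 93.1 and 79.5) was highest in control 2. The stress-inducible chaperones Hspa1a (2.33, 2.52 and 1.15) and Hspa1b (2.11, 2.27 and 3.36) had the lowest values per kb of 14 chaperone genes, and the constitutive Hsp90ab1 (2477, 2585 and 2613) the highest.

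Of 31 matrix genes, Sparc, Fn1 and the basement membrane collagens Col4a1 and Col4a2 stood highest per kb. Sparc, a collagen-binding matrix protein, stood at 312 per kb, Fn1 (fibronectin) at 180, Col4a1 at 136 and Col4a2 at 94.4, and the fibrillar Col3a1 at 51.6 and Col1a1 at 51.1. Col4a1 had counts of 1152, 995 and 905, highest in control 1, and Col3a1 369, 534 and 617, lowest in control 1.

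Without a gene symbol in the tables used, ENSMUSG00000083840 was at 0, 529 and 504 in the 3 controls, the widest range after Xist.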
